A study of Ambystoma mexicanum with 12 samples.

Results

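The solute carriers (SLC) are membrane proteins that move amino acids, sugars, metals, ions, vitamins and metabolites into and out of cells and organelles. Members were the genes whose symbol on the array was SLC, a family number, the letter A and a member number. The array held 174 such genes on 200 probes, out of 8639 named genes on 20035 tested probes. Of the 174 genes, 171 were carriers of 39 families, placed here in 18 groups by what they carry. The other 3, SLC2A4RG, SLC4A1AP and SLC7A6OS, share the spelling but encode a transcription factor, an adaptor-like nuclear protein and a protein read from the opposite strand of SLC7A6. The spelling also leaves out 17 genes of the SLC35 subfamilies B to F and of the organic anion SLCO family.

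RNA came from full thickness 2 mm punch biopsies of the skin of adult male white axolotls 2 years old. There were 12 arrays in 4 groups of n = 3: wounds 2, 14 or 21 days post injury (dpi), and uninjured skin. All groups share strain and site, none is labelled as carrying a mutation or transgene, and the question was which genes differ as a skin wound heals. The labels disagree in places. A description gives 7 days for arrays whose titles give 14, and the treatment text describes an ivermectin spinal cord experiment on small pooled animals, whereas titles, tissue and methods all describe untreated skin of separate adults. It is therefore not settled if each array stands for 1 animal or for pooled RNA. The p-values set differences of group means against the spread between arrays, which need not be that between animals.

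Wounded skin builds new matrix, and its cells divide and migrate, while carriers set which nutrients cross the membrane. Many SLC7 proteins work only as light chains bound to the heavy chain SLC3A2, and the SLC16 lactate carriers need the chaperones basigin or embigin to reach the surface. The SLC25 family sits mostly in the inner mitochondrial membrane, while the zinc carriers oppose each other, SLC30 proteins moving zinc out of the cytosol and SLC39 proteins moving it in.

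Each value is a log2 intensity, so a difference of 1 is a 2-fold change. Where several probes bore the same symbol, the brightest on average stood for the gene. Differences were tested in limma on all 20035 probes with Benjamini-Hochberg adjustment within a comparison, and a gene was called when the adjusted p was under 0.05. Each of the 12 arrays was also left out in turn, and an omission means such a fit without 1 array. Errors are SD over n = 3 arrays for levels and SE for log2 changes. The 3 comparisons with uninjured skin share the same uninjured arrays, so their results are not independent of each other. In a whole biopsy, fewer cells of a type and less RNA per cell cannot be told apart.

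The array medians lay between 5.52 and 5.61 and the lower quartiles between 4.04 and 4.11. Uninjured replicate 3 and 14 dpi replicate 2 had the lowest mean correlation with their own group, 0.975 and 0.975. All 24 measured epidermal markers were above the lower quartile in a group or more, and so were 17 macrophage markers and every one of 40 skeletal muscle markers but MYBPH. The muscle list was uneven between arrays of a group. Its mean, centred over the 12 arrays, was 1.70, 1.68 and -0.61 in uninjured skin, -0.26, -2.03 and -2.41 at 2 dpi, -0.80, 0.95 and -1.12 at 14 dpi and 1.64, 0.28 and 0.99 at 21 dpi. Of 17 fibroblast markers, 9 were lower and 0 higher at 2 dpi, and 1 was lower and 6 higher at 21 dpi. Over all named genes 4.54% were lower and 6.22% higher at 2 dpi, and 7.26% lower and 7.67% higher at 21 dpi. Of 24 epidermal markers, 4 were higher and 1 lower at 2 dpi, and 1 was higher and 2 lower at 21 dpi. Their log2 changes ran from -2.05 to 1.39 at 2 dpi and from -3.96 to 1.70 at 21 dpi. The epidermal mean, whose members moved both ways, ran between 0.24 and 0.40 at 2 dpi and between -0.52 and -0.09 at 21 dpi. The muscle and epidermal means were used as covariates, and the part of other cell types in the SLC results was not tested.

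At 2 dpi, 14 of the 174 SLC genes (8.05%) were called against uninjured skin, where 10.8% of all named genes were. Of the 14, 4 were higher and 10 lower, and over all named genes 6.22% were higher and 4.54% lower. At 14 dpi, 11 SLC genes (6.32%) were called, 5 higher and 6 lower, against 8.04% of all named genes (5.29% higher, 2.75% lower). At 21 dpi there were 25 calls (14.4%), 9 higher and 16 lower, against 14.9% (7.67% higher, 7.26% lower). The shares of SLC genes called lay a little below those of all named genes, and the difference was not tested. The SLC genes were dimmer than the probes as a whole. Their median lay between 4.75 and 5.04 on the 12 arrays, where the median of all tested probes lay between 5.52 and 5.61. The shares were not matched for signal. Calls of at least 2-fold numbered 2 higher and 6 lower at 2 dpi, 2 and 3 at 14 dpi, and 4 and 7 at 21 dpi, where 3.94%, 2.72% and 4.83% of all named genes passed both limits. Wound and uninjured arrays did not overlap for 45, 39 and 51 SLC genes (25.9%, 22.4% and 29.3%), beside 28.7%, 25.1% and 35.5% of all named genes. The median log2 change of the 174 genes was 0.00, 0.01 and -0.01 at 2, 14 and 21 dpi, beside 0.02, 0.01 and -0.01 over all named genes. Over the wound times 32 SLC genes were called at least once, 12 higher and 20 lower, and 0 were higher at one time and lower at another. This joint count was not made over all named genes, so it has no share to be set against. A moderated F-test over the 3 wound times called 30 SLC genes (17.2%), where it called 24.9% of all named genes.

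The counts depended on single arrays. Omitting uninjured replicate 1 or 2 dpi replicate 2 gave 9 calls at 2 dpi in place of 14, and omitting uninjured replicate 3 gave 25. The 11 at 14 dpi became 7 when either uninjured replicate 2 or 14 dpi replicate 2 was omitted, and 19 when uninjured replicate 3 was. The 25 at 21 dpi became 14 and 12 without uninjured replicates 1 and 2, and 11, 12 and 9 without 21 dpi replicates 1, 2 and 3. Adding a marker mean as a covariate ended some calls and added others. The count with the muscle mean was 13 at 14 dpi in place of 11, and 31 at 21 dpi in place of 25. With the epidermal mean it was 14 at 14 dpi in place of 11. With the muscle mean, 5 of the 14 calls at 2 dpi were kept, those of SLC7A11, SLC7A3, SLC11A1, SLC25A4 and SLC2A11, and 1 call was lost at each later time, SLC43A1 at 14 dpi and SLC1A5 at 21 dpi. With the epidermal mean, 7 of the 25 calls at 21 dpi were kept, those of SLC7A11, SLC7A3, SLC7A6, SLC3A2, SLC31A1, SLC25A12 and SLC25A29, and the calls lost at 2 dpi were SLC16A9, SLC25A29, SLC25A33, SLC25A4 and SLC2A11. The epidermal means at 2 and 21 dpi did not overlap those of uninjured skin. Such a fit cannot tell the marker mean from the wound time.

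**Figure D1:**
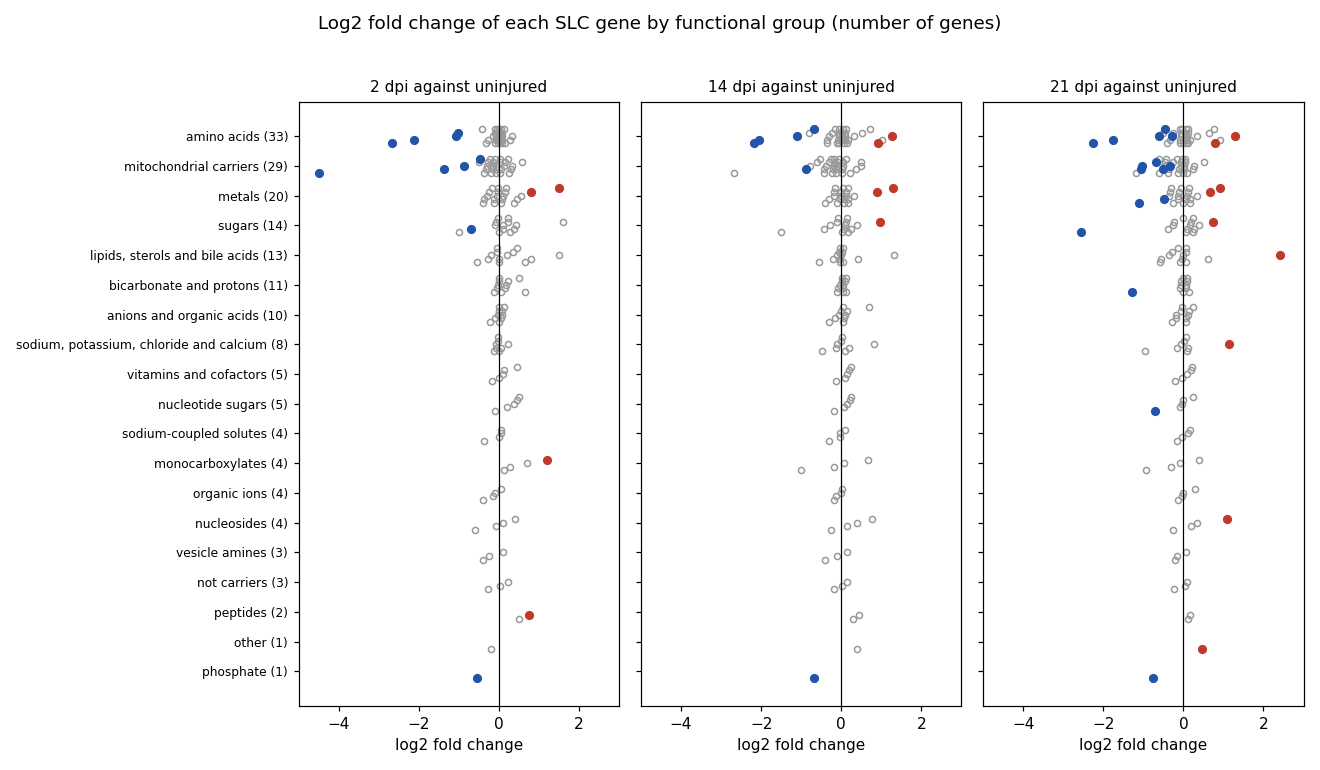
Log2 fold change of each of the 174 SLC genes (horizontal axis) at 2, 14 and 21 dpi against uninjured skin, by the group of solutes they carry (vertical axis, number of genes in brackets). Filled red points are genes called higher, filled blue points genes called lower and open grey points genes that were not called; most points lie near 0, and the amino acid and mitochondrial rows hold most of the blue ones.

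The amino acid carriers gave the smallest adjusted p of any SLC gene against uninjured skin at each time. The group takes whole families, so its 33 measured genes also hold neurotransmitter carriers of SLC6 and the nucleobase carrier SLC43A3. Of the 33, 4 were lower at 2 dpi and 0 higher, 4 lower and 2 higher at 14 dpi, and 5 lower and 2 higher at 21 dpi. The share called was 12.1%, 18.2% and 21.2%, beside 10.8%, 8.04% and 14.9% of all named genes. The lower ones included the cystine, cationic and neutral amino acid carriers SLC7A11, SLC7A3 and SLC7A6 at every time. The higher ones were the same 2 genes at 14 and 21 dpi, SLC3A2 and SLC38A9.

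SLC7A11, which takes up cystine in exchange for glutamate for glutathione synthesis, had log2 intensities of 6.10, 6.71 and 6.04 in uninjured skin, 3.70, 3.48 and 3.65 at 2 dpi, 3.86, 4.34 and 4.15 at 14 dpi and 4.85, 4.07 and 4.67 at 21 dpi. Every wound array was below every uninjured array. The log2 change was -2.68 ± 0.23 at 2 dpi (6.40-fold lower, limma adjusted p = 0.000168), -2.17 ± 0.23 at 14 dpi (adjusted p = 0.000591) and -1.76 ± 0.23 at 21 dpi (adjusted p = 0.00168). The mean at 2 dpi, 3.61 ± 0.11, lay below the lower quartile of all probe values, 4.08. At 21 dpi the gene stood 0.92 ± 0.23 above its level at 2 dpi (adjusted p = 0.0164), a call lost without 2 dpi replicate 2, 21 dpi replicate 1 or 21 dpi replicate 3 (values 0.76 to 1.15 over all single-array omissions).

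SLC7A3, a carrier of arginine, lysine and ornithine, had values of 9.64, 9.28 and 9.32 in uninjured skin, 6.97, 7.49 and 7.44 at 2 dpi, 7.24, 7.11 and 7.73 at 14 dpi and 7.77, 6.55 and 7.18 at 21 dpi. The wounds were low at all times, with no array near the uninjured ones, and no difference between wound times was called. Log2 changes were -2.11 ± 0.28, -2.05 ± 0.28 and -2.25 ± 0.28 at 2, 14 and 21 dpi, falls of 4.33-, 4.15- and 4.75-fold with limma adjusted p of 0.00177, 0.00269 and 0.00150. For both SLC7A11 and SLC7A3 the fall at each time was called under all 23 alternative settings.

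SLC7A6, an exchanger of cationic for neutral amino acids, was measured at 6.30, 5.91 and 6.37 in uninjured skin, 5.17, 4.93 and 5.26 at 2 dpi, 4.96, 5.41 and 4.86 at 14 dpi and 5.78, 5.42 and 5.54 at 21 dpi. It was lower, with log2 changes of -1.07 at 2 dpi and -1.12 at 14 dpi (limma adjusted p = 0.00494 and 0.00520). At 21 dpi the change was -0.61 ± 0.17 (adjusted p = 0.0458), a call lost in 9 of 12 omissions and kept only without uninjured replicate 2 or 14 dpi replicates 2 or 3 (values -0.75 to -0.52).

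The remaining SLC7 members were not lower at every time. SLC7A1, the widely expressed cationic amino acid carrier, had means of 4.54 ± 0.14 in uninjured skin, 4.81 ± 0.26 at 2 dpi, 4.19 ± 0.05 at 14 dpi and 4.07 ± 0.14 at 21 dpi, with calls at 21 dpi against uninjured skin (-0.47, limma adjusted p = 0.0454), at 14 against 2 dpi (-0.62, adjusted p = 0.0193) and at 21 against 2 dpi (-0.74, adjusted p = 0.00349). The first of these was lost in 9 of 12 omissions and kept only without uninjured replicate 3 or 2 dpi replicates 1 or 3, and the second lost without 2 dpi replicates 2 or 3 or 14 dpi replicates 2 or 3. SLC7A5, SLC7A7 and SLC7A10, light chains for large neutral, cationic and small neutral amino acids, were not called, with log2 changes against uninjured skin between -0.26 and 0.12. SLC7A8, another large neutral amino acid exchanger, had 5.70, 4.77 and 6.50 at 14 dpi, 5.02, 6.33 and 5.32 at 21 dpi and 4.39, 4.77 and 4.79 in uninjured skin, and its log2 changes of 1.01 ± 0.41 and 0.91 ± 0.41 were not called (limma adjusted p = 0.177 and 0.188). Of the 8 SLC7 genes, 3, 3 and 4 were lower at 2, 14 and 21 dpi and 0 were higher. These were 37.5%, 37.5% and 50% of the family. Over all named genes 4.54%, 2.75% and 7.26% were lower and 6.22%, 5.29% and 7.67% higher. The difference was not tested.

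SLC3A2, the heavy chain that brings light chains such as SLC7A11 and SLC7A6 but not the cationic carriers SLC7A1 and SLC7A3 to the surface, was higher at 14 and 21 dpi. It was measured at 10.86, 10.70 and 11.002 in uninjured skin, 10.73, 11.04 and 10.92 at 2 dpi, 11.78, 11.64 and 11.90 at 14 dpi and 11.38, 11.87 and 11.68 at 21 dpi. The 2 dpi arrays overlapped the uninjured ones, and every array at 14 and 21 dpi was above both. The log2 change was 0.92 ± 0.14 at 14 dpi and 0.79 ± 0.14 at 21 dpi against uninjured skin (limma adjusted p = 0.00496 and 0.00708), and 0.88 ± 0.14 and 0.75 ± 0.14 against 2 dpi (adjusted p = 0.00529 and 0.00471). All 4 calls held in all 23 alternative settings.

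SLC38A9, a lysosomal amino acid carrier and arginine sensor upstream of mTORC1, had values of 7.38, 7.98 and 8.27 in uninjured skin, 8.12, 7.61 and 8.10 at 2 dpi, 8.64, 9.57 and 9.21 at 14 dpi and 9.35, 9.03 and 9.12 at 21 dpi. As for SLC3A2, the late wounds stood above both uninjured skin and 2 dpi wounds with no overlap. The log2 change was 1.26 ± 0.27 at 14 dpi (limma adjusted p = 0.0204) and 1.29 ± 0.27 at 21 dpi (adjusted p = 0.0126), and its second probe was called in the same direction, at 1.10 and 1.12. The 14 dpi call was lost without uninjured replicate 1 or 2 or 14 dpi replicate 2 or 3 (values 1.01 to 1.51), whereas that at 21 dpi was kept in all 12 omissions.

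SLC43A1, a facilitated carrier of branched-chain amino acids, was nearly identical in the 3 uninjured arrays (9.05, 9.07 and 9.05) and lower in every wound. It had 8.27, 7.89 and 7.96 at 2 dpi, 7.98, 8.40 and 8.73 at 14 dpi and 8.57, 8.72 and 8.65 at 21 dpi. The log2 change was -1.02 ± 0.17 at 2 dpi (limma adjusted p = 0.00511) and -0.69 ± 0.17 at 14 dpi (adjusted p = 0.0352, lost in 8 of 12 omissions and kept only without 2 dpi replicates 1, 2 or 3 or 14 dpi replicate 3), and -0.41 ± 0.17 at 21 dpi was not called (adjusted p = 0.145). Its second probe was also called lower at 2 and 14 dpi, at -1.05 and -0.93. The relatives SLC43A2, another branched-chain carrier, and SLC43A3, a nucleobase carrier, were not called against uninjured skin on their brightest probes. The second SLC43A2 probe was higher at 14 and 21 dpi, at 0.52 and 0.52 (limma adjusted p = 0.0366 and 0.0248). Against 2 dpi, SLC43A2 was higher by 0.68 at 14 dpi and 0.51 at 21 dpi (limma adjusted p = 0.0254 and 0.0392), and SLC43A3 by 1.20 at 21 dpi (adjusted p = 0.0330). The SLC43A2 calls were lost without 2 dpi replicates 1 or 3 or 14 dpi replicates 1 or 3 at 14 dpi and lost without 2 dpi replicates 1 or 3, 14 dpi replicate 3 or 21 dpi replicates 1 or 3 at 21 dpi, and that of SLC43A3 was lost without 2 dpi replicates 2 or 3 or 21 dpi replicates 1, 2 or 3.

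**Figure D2:**
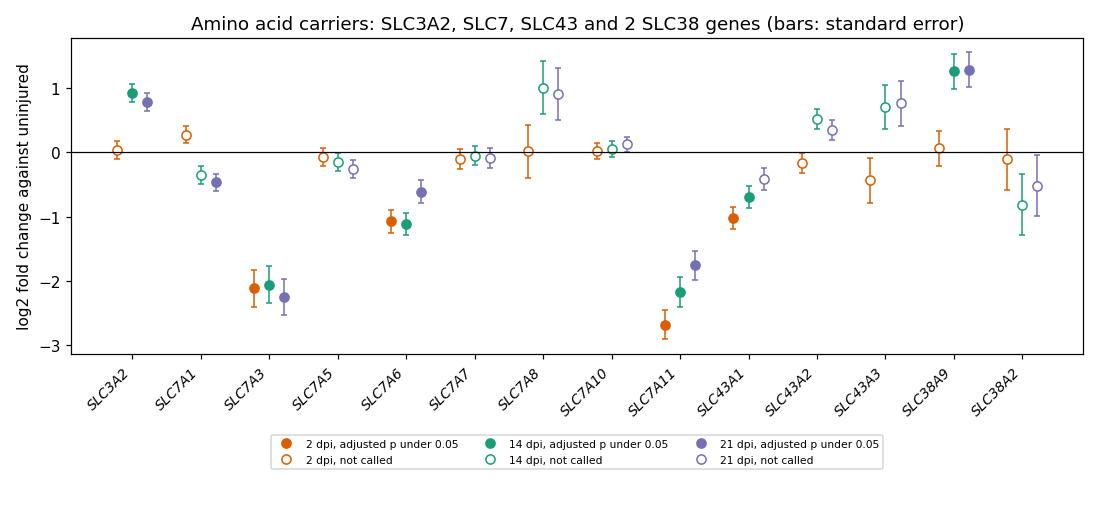
Log2 fold change against uninjured skin (vertical axis, bars SE) of SLC3A2, the 8 SLC7 genes, the 3 SLC43 genes and SLC38A9 and SLC38A2 at 2, 14 and 21 dpi. Filled points had an adjusted p under 0.05: SLC7A3, SLC7A6 and SLC7A11 are below 0 at all times, and SLC3A2 and SLC38A9 leave 0 only at 14 and 21 dpi.

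Other amino acid carriers gave small or no changes. SLC1A5, a glutamine carrier, was lower, with a log2 change of -0.29 at 21 dpi (limma adjusted p = 0.0461), a call lost in 11 of 12 omissions and kept only without 14 dpi replicate 2. SLC38A2, a stress-inducible glutamine and alanine carrier, had the widest range of any SLC gene without a call, 2.35, and its uninjured arrays alone read 8.43, 7.25 and 6.31. Among the 7 SLC38 genes, SLC38A10 and SLC38A3 had log2 changes at 21 dpi of -0.33 and -0.00 and were not called on their brightest probe. A dimmer SLC38A3 probe was higher at 21 than at 2 dpi, at 0.46 (limma adjusted p = 0.0239). In the SLC6 family of neurotransmitter and amino acid carriers, 0 of 9 were called and 6 lay below the lower quartile in every group, and SLC6A4, SLC6A9 and SLC6A20, with the smallest F-test p, changed by at most 0.17.

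Genes of amino acid stress and synthesis outside the SLC family were read from a list of 19 measured genes. Of these, 2 were higher and 1 lower at 2 dpi, 2 higher and 0 lower at 14 dpi, and 4 higher and 1 lower at 21 dpi. Over all named genes 6.22%, 5.29% and 7.67% were higher and 4.54%, 2.75% and 7.26% lower at these times. DDIT4, an mTORC1 inhibitor, was higher at 2 dpi by 2.96 ± 0.33 (limma adjusted p = 0.000680), and VLDLR, a lipoprotein receptor, by 1.20 (adjusted p = 0.00167), while PYCR1, a proline synthesis enzyme, was lower, with a log2 change of -0.71 (adjusted p = 0.00832). PHGDH, the first enzyme of serine synthesis, was higher by 1.81 at 14 dpi and 1.80 at 21 dpi (adjusted p = 0.0134 and 0.00925). ATF4, the transcription factor of amino acid starvation, and its target ASNS were not called, with log2 changes between -0.44 and 0.07. These genes were named after their values were seen, and activity of the ATF4 protein was not tested.

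The sugar carriers held the second largest swing of any SLC gene. SLC2A1, the widely expressed glucose carrier GLUT1, had 9.75, 8.28 and 8.33 in uninjured skin, 9.35, 10.63 and 11.15 at 2 dpi, 8.47, 6.24 and 7.17 at 14 dpi and 5.66, 6.86 and 6.14 at 21 dpi. At 2 dpi replicates 2 and 3 stood above all uninjured arrays and replicate 1 did not, and every 21 dpi array stood below all 6 arrays of uninjured skin and 2 dpi. The log2 change at 2 dpi, 1.59 ± 0.64, was not called (limma adjusted p = 0.158). The level fell to 6.22 ± 0.61 at 21 dpi, against 8.79 ± 0.83 in uninjured skin, a log2 change of -2.57 ± 0.64 (5.93-fold, adjusted p = 0.0257). That call was lost without uninjured replicate 1 or 2 or 21 dpi replicate 1 or 3 (values -2.89 to -2.09). Against 2 dpi the fall was -3.09 ± 0.64 at 14 dpi (adjusted p = 0.0167) and -4.16 ± 0.64 at 21 dpi (17.9-fold, adjusted p = 0.00152), the first lost without 2 dpi replicates 2 or 3 or 14 dpi replicates 2 or 3 and the second kept in all 12 omissions. A second SLC2A1 probe had the same order of means and was called at 21 against 2 dpi, at -1.70 (adjusted p = 0.00859), but not at 21 dpi against uninjured skin (-0.76, adjusted p = 0.218). With the epidermal marker mean as a covariate the 21 against 2 dpi change was -2.52 and no longer called (adjusted p = 0.180), the epidermal means of the 2 groups not overlapping.

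Of the 14 sugar carriers, 3 others passed a test. SLC37A2, a sugar phosphate exchanger of the endoplasmic reticulum, was higher at 14 dpi with 9.24, 9.68 and 9.68, against 8.15, 8.60 and 8.96 in uninjured skin (log2 change 0.96 ± 0.19, limma adjusted p = 0.0142, lost without 14 dpi replicate 3). It was also higher at 21 dpi by 0.75 (adjusted p = 0.0273, lost without uninjured replicates 1 or 2 or 21 dpi replicates 1, 2 or 3). SLC2A11, a fructose and glucose carrier, was lower at 2 dpi, with a log2 change of -0.69 (adjusted p = 0.0266), a call lost without uninjured replicate 1 or 2 dpi replicates 1 or 2. SLC37A3, a relative of SLC37A2, was lower at 21 than at 2 dpi, with a log2 change of -0.66 (adjusted p = 0.00992). SLC2A12, a glucose carrier of muscle and fat, had 5.77, 4.77 and 5.10 at 2 dpi and 5.85, 6.64 and 6.16 in uninjured skin and was not called (-1.003 ± 0.40, adjusted p = 0.160).

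Lactate and other monocarboxylates are carried by SLC16 proteins. SLC16A1, a lactate and pyruvate carrier, had 9.74, 9.27 and 9.23 in uninjured skin, 9.30, 10.003 and 11.02 at 2 dpi, 8.69, 8.18 and 8.34 at 14 dpi and 8.03, 8.88 and 8.55 at 21 dpi. The 2 dpi arrays spread widely and reached from within the uninjured range to well above it. On this brightest probe, the 14 and 21 dpi arrays lay below all uninjured arrays. No comparison with uninjured skin was called for this probe, with log2 changes of 0.70 ± 0.38, -1.005 ± 0.38 and -0.93 ± 0.38. Against 2 dpi it was lower, with log2 changes of -1.70 at 14 dpi and -1.63 at 21 dpi (limma adjusted p = 0.0222 and 0.0121). The first was lost without 2 dpi replicate 2 or 14 dpi replicate 2 or 3, and the second without 21 dpi replicate 1. The gene's other probe was called higher at 2 dpi against uninjured skin, at 1.35 (adjusted p = 0.0100). On that probe the 14 and 21 dpi arrays overlapped the uninjured ones, with log2 changes of 0.36 and -0.11, not called.

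SLC16A9, a carnitine carrier, was higher at 2 dpi, with 8.35, 8.17 and 8.22 against 6.48, 6.73 and 7.95 in uninjured skin (1.20 ± 0.32, limma adjusted p = 0.0408), a call lost in 9 of 12 omissions and kept only without uninjured replicate 3 or 14 dpi replicates 2 or 3. The brightest probes of SLC16A6 and SLC16A7 were not called, but 3 further probes of SLC16A6 were lower at 21 than at 2 dpi, at -1.12, -1.10 and -0.91, where the representative probe gave -0.36. The first of these was also higher at 2 dpi than in uninjured skin, at 0.84 (limma adjusted p = 0.0300). The chaperones of these carriers, BSG and EMB, were not called at any wound time. On the list of 23 measured hypoxia and glycolysis genes, 7 were higher and 1 lower at 2 dpi, 1 higher and 1 lower at 14 dpi, and 1 higher and 3 lower at 21 dpi. Over all named genes 6.22%, 5.29% and 7.67% were higher and 4.54%, 2.75% and 7.26% lower. The glycolytic regulators PFKP and PFKFB4 were higher at 2 dpi by 0.83 and 0.80 (limma adjusted p = 0.00178 and 0.0127). PFKP was lower at 21 dpi, with a log2 change of -0.63 (adjusted p = 0.00649), while LDHB, which interconverts lactate and pyruvate, was lower at all times. BNIP3, a mitophagy receptor induced by low oxygen, was higher at 21 dpi by 0.77 (adjusted p = 0.0235).

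Among 20 metal carriers, 2 were higher and 0 lower at 2 and at 14 dpi, and 2 were higher and 2 lower at 21 dpi. These shares of 10%, 10% and 20% lay near the 10.8%, 8.04% and 14.9% of all named genes. SLC11A1, which exports iron and manganese from the phagosomes of macrophages, was the single SLC gene called higher at all 3 times. It had 8.18, 7.44 and 7.40 in uninjured skin, 8.76, 9.34 and 9.40 at 2 dpi, 8.73, 9.27 and 8.88 at 14 dpi and 8.70, 8.55 and 8.52 at 21 dpi. All 9 wound arrays were above all 3 uninjured arrays, with uninjured replicate 1 nearest to them. The log2 change was 1.49 ± 0.24 at 2 dpi (2.81-fold, limma adjusted p = 0.00417), 1.28 ± 0.24 at 14 dpi (adjusted p = 0.0107) and 0.92 ± 0.24 at 21 dpi (adjusted p = 0.0297, lost without uninjured replicates 2 or 3 or 21 dpi replicates 1, 2 or 3). Markers of macrophages and monocytes were higher too, 7, 11 and 12 of 17 being called at 2, 14 and 21 dpi and 0 lower. Over all named genes 6.22%, 5.29% and 7.67% were higher and 4.54%, 2.75% and 7.26% lower. The centred mean of the macrophage markers ran from -0.76 to -0.61 in uninjured skin, -0.14 to 0.21 at 2 dpi, 0.42 to 0.56 at 14 dpi and 0.14 to 0.26 at 21 dpi. The part of macrophage number in the SLC11A1 result was not tested. Of the paralogue SLC11A2, the general iron importer, every array read below the lower quartile.

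SLC31A1, the main copper importer, had 10.69, 10.63 and 10.62 in uninjured skin, 10.78, 11.24 and 11.05 at 2 dpi, 10.51, 9.81 and 10.41 at 14 dpi and 9.36, 9.74 and 9.50 at 21 dpi. The 2 dpi arrays were the highest, and all 21 dpi arrays lay below every other array of the series. The log2 change at 21 dpi was -1.12 ± 0.19 against uninjured skin (2.17-fold lower, limma adjusted p = 0.00485) and -1.49 ± 0.19 against 2 dpi (2.81-fold lower, adjusted p = 0.000496), and both calls held under all 23 alternatives. The copper pump ATP7A, which works on the way out, was higher at 2 dpi by 1.01 (adjusted p = 0.000242) and not called at 21 dpi (-0.32).

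Of 7 SLC30 zinc carriers, 1, 0 and 0 (14.3%, 0% and 0%) were called at 2, 14 and 21 dpi. Of 8 SLC39 zinc carriers, 0, 1 and 2 (0%, 12.5% and 25%) were called. Over all named genes 10.8%, 8.04% and 14.9% were called, and the difference was not tested. SLC30A1, the zinc exporter of the plasma membrane, had 8.71, 8.86 and 9.04 at 2 dpi, against 8.13, 8.05 and 8.04 in uninjured skin, a rise of 0.80 ± 0.14 (limma adjusted p = 0.00755). It was lower than this at 14 and 21 dpi (-0.68 and -0.65 against 2 dpi, adjusted p = 0.0177 and 0.00930). The other 6 SLC30 genes were not called, SLC30A7 and SLC30A2 among them. SLC39A3, a zinc importer, was higher at 14 dpi by 0.90 ± 0.19 (adjusted p = 0.0176) and at 21 dpi by 0.65 (adjusted p = 0.0452). SLC39A7, which releases zinc from the endoplasmic reticulum, was lower at 21 dpi, with a log2 change of -0.48 (adjusted p = 0.0493), and SLC39A9 was not called. The SLC39A3 call was lost without uninjured replicates 1 or 2 or 14 dpi replicate 2 at 14 dpi and lost in 9 of 12 omissions and kept only without uninjured replicate 3, 2 dpi replicate 3 or 14 dpi replicate 2 at 21 dpi. That of SLC39A7 was lost in 9 of 12 omissions and kept only without 2 dpi replicate 3 or 14 dpi replicates 1 or 2, and the SLC30A1 difference at 14 against 2 dpi was lost without 2 dpi replicates 2 or 3.

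SLC48A1, which returns haem from lysosomes to the cytosol, was higher at 21 dpi by 0.46 against uninjured skin (limma adjusted p = 0.0462, lost in 9 of 12 omissions and kept only without uninjured replicate 1 or 14 dpi replicates 2 or 3) and by 0.67 against 2 dpi (adjusted p = 0.00585, kept in all 12). Of 12 measured genes of iron, copper and zinc handling, 1, 2 and 2 were higher at 2, 14 and 21 dpi and 0 were lower, or 8.33%, 16.7% and 16.7%, beside the same 10.8%, 8.04% and 14.9%. HMOX1, which degrades haem and was also on the macrophage list, was higher by 3.60, 3.40 and 2.52 (adjusted p = 0.00121, 0.00231 and 0.00666). Its relative HMOX2 was higher by 0.51 at 14 dpi and 0.45 at 21 dpi (adjusted p = 0.0290 and 0.0332).

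Of the 29 SLC25 carriers, taking the brightest probe of each, 4, 1 and 5 were called lower at 2, 14 and 21 dpi and 0 higher. These were 13.8%, 3.45% and 17.2% of the family, where 4.54%, 2.75% and 7.26% of all named genes were lower and 10.8%, 8.04% and 14.9% were called in either direction. The dimmer probe of SLC25A39, a mitochondrial glutathione carrier, was called higher at 2 dpi (0.35, limma adjusted p = 0.0383), with 0.24 for its brightest probe. The family had median log2 changes of -0.10, -0.18 and -0.16. SLC25A12, the aspartate and glutamate carrier of the malate-aspartate shuttle, had 9.80, 9.94 and 9.39 in uninjured skin, 8.99, 8.74 and 8.80 at 2 dpi, 9.09, 8.61 and 8.78 at 14 dpi and 8.61, 8.71 and 8.59 at 21 dpi. Every wound array was below the uninjured arrays at all times. The log2 changes were -0.87 ± 0.16, -0.88 ± 0.16 and -1.07 ± 0.16 (limma adjusted p = 0.00812, 0.00930 and 0.00287), and all 3 calls were kept in all 12 single-array omissions. When the muscle mean was added as a covariate, the change at 2 dpi was -0.72 (adjusted p = 0.164) and that at 21 dpi -1.07 (adjusted p = 0.00283).

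SLC25A4, the ADP/ATP carrier of heart and skeletal muscle, had the widest range of the 174 genes. It was measured at 11.48, 11.59 and 8.90 in uninjured skin, 7.98, 5.46 and 5.05 at 2 dpi, 7.53, 9.64 and 6.79 at 14 dpi and 10.03, 8.99 and 9.42 at 21 dpi. Uninjured replicate 3 lay more than 2 units below the other uninjured arrays, and 2 dpi replicate 1 as far above the other 2 dpi arrays. The log2 change at 2 dpi was -4.50 ± 0.97 (22.6-fold lower, limma adjusted p = 0.0171), lost without uninjured replicate 1 or 2 or 2 dpi replicate 2 or 3 (values -5.40 to -3.94). By 21 dpi it stood 3.32 ± 0.97 above 2 dpi (adjusted p = 0.0329, lost without 2 dpi replicates 2 or 3 or 21 dpi replicates 1, 2 or 3) and was not called against uninjured skin (-1.17 ± 0.97, adjusted p = 0.508). The 12 of 40 muscle markers called at 2 dpi were all lower, where 4.54% of all named genes were lower. The 2 lowest SLC25A4 values came from the 2 arrays with the lowest muscle means. With the muscle mean as a covariate, the change at 2 dpi was -1.47 (adjusted p = 0.0209) and the change at 21 against 2 dpi 0.24 (adjusted p = 0.694). The muscle means of 2 and 21 dpi did not overlap. The other ADP/ATP carrier on the array, SLC25A5, had a mean of 13.81 and a range of 0.13 over the 12 arrays, the smallest of any SLC gene.

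**Figure D3:**
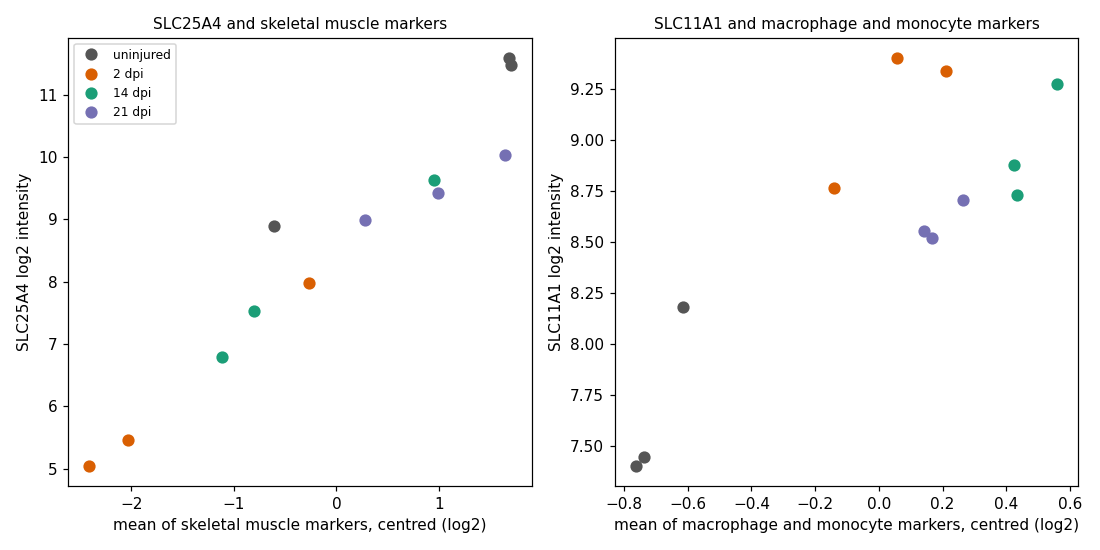
Log2 intensity of SLC25A4 against the centred mean of 40 skeletal muscle markers (left) and of SLC11A1 against that of 17 macrophage and monocyte markers (right), 1 point per array, coloured by group. The lowest SLC25A4 values, 5.05 and 5.46 at 2 dpi, lie at the lowest muscle means, and 11.48 and 11.59 in uninjured skin at the highest, while the 3 uninjured arrays hold the lowest values of both SLC11A1 and the macrophage mean.

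SLC25A29, a mitochondrial carrier of basic amino acids, was lower at 2 dpi with 6.51, 6.20 and 5.61, against 7.54, 7.84 and 7.05 in uninjured skin (-1.37 ± 0.29, limma adjusted p = 0.0144), and at 21 dpi (-1.03 ± 0.29, adjusted p = 0.0398). With the muscle mean as a covariate its change at 2 dpi was -0.61 (adjusted p = 0.265) and at 21 dpi -1.04 (adjusted p = 0.00369). Its call was lost without uninjured replicates 1 or 2 at 2 dpi, and at 21 dpi it was lost in 7 of 12 omissions and kept only without uninjured replicate 3, 2 dpi replicates 1 or 3, 14 dpi replicate 2 or 21 dpi replicate 1. SLC25A33, a pyrimidine nucleotide carrier, was lower at 2 dpi, with a log2 change of -0.48 (adjusted p = 0.0346), and its second probe was called lower at all times (-1.06, -1.26 and -1.39). The citrate carrier SLC25A1, the oxoglutarate carrier SLC25A11 and the ATP-Mg carrier SLC25A24 were lower at 21 dpi, with log2 changes of -0.35, -0.51 and -0.67 (adjusted p = 0.0252, 0.0332 and 0.0360). The first pair of calls was lost without uninjured replicates 1 or 2 or 21 dpi replicates 1, 2 or 3, and that of SLC25A24 also without 14 dpi replicate 3. The SLC25A33 call was lost without uninjured replicates 1 or 3, 2 dpi replicates 2 or 3 or 21 dpi replicate 3. SLC25A3, the mitochondrial phosphate carrier, and SLC25A20, the carnitine-acylcarnitine carrier, were bright (means 13.35 and 10.80) and not called.

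Of 8 sodium, potassium, chloride and calcium carriers, 0, 0 and 1 were called at 2, 14 and 21 dpi. The share at 21 dpi, 12.5%, lay near the 14.9% of all named genes. Of 3 vesicle amine carriers, 0 were called at any of these times. SLC20A1, a sodium-phosphate cotransporter, had 10.42, 10.43 and 10.09 in uninjured skin, 9.59, 9.89 and 9.80 at 2 dpi, 9.90, 9.35 and 9.63 at 14 dpi and 9.45, 9.68 and 9.54 at 21 dpi. It was lower at every wound time, with log2 changes of -0.55, -0.69 and -0.76 (limma adjusted p = 0.0466, 0.0230 and 0.0106). At 21 dpi the call was kept in all 12 omissions. At 2 dpi it was lost in 9 of 12 omissions and kept only without uninjured replicate 3 or 14 dpi replicates 1 or 2, and at 14 dpi lost without uninjured replicates 1 or 2 or 14 dpi replicates 2 or 3.

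SLC4A4, a sodium-bicarbonate cotransporter, had 6.76, 7.15 and 7.84 in uninjured skin, 7.55, 7.82 and 7.90 at 2 dpi, 7.10, 6.92 and 7.37 at 14 dpi and 6.14, 5.54 and 6.19 at 21 dpi. The 21 dpi arrays lay below all others, with log2 changes of -1.29 ± 0.27 against uninjured skin (limma adjusted p = 0.0117) and -1.80 ± 0.27 against 2 dpi (adjusted p = 0.00120). With the epidermal mean as a covariate neither was called, at -1.31 (adjusted p = 0.0537) and -1.83 (adjusted p = 0.0680). The epidermal means at 21 dpi did not overlap those of uninjured skin or 2 dpi. Its 2 other probes were dim, with means of at most 4.87, and not called. Of the 11 bicarbonate and proton carriers, 7 were below the lower quartile in every group and SLC4A4 alone was called, with SLC4A10 and SLC4A7 uncalled. The share called was 0%, 0% and 9.09% at 2, 14 and 21 dpi, beside 10.8%, 8.04% and 14.9% of all named genes.

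SLC12A4, a potassium-chloride cotransporter, had 8.07, 7.96 and 7.76 at 21 dpi, 6.48, 7.04 and 6.66 at 2 dpi and 7.24, 6.80 and 6.35 in uninjured skin. It was higher at 21 dpi by 1.14 ± 0.24 against uninjured skin (limma adjusted p = 0.0124) and 1.21 ± 0.24 against 2 dpi (adjusted p = 0.00537), whereas a second, dimmer probe changed by 0.08 and -0.02. The sodium-potassium-chloride cotransporter SLC12A2 was not called (-0.95 ± 0.38 at 21 dpi, adjusted p = 0.143), nor was SLC12A8.

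SLC10A4, a bile acid carrier relative found on synaptic vesicles of cholinergic and aminergic neurons in mammals, had 6.56, 6.17 and 5.08 in uninjured skin, 7.61, 8.12 and 6.60 at 2 dpi, 7.06, 8.13 and 6.55 at 14 dpi and 7.63, 8.82 and 8.62 at 21 dpi. All 2 dpi and 21 dpi arrays were above the uninjured ones, and 1 array at 14 dpi was not. The rise at 21 dpi was 2.42 ± 0.54 (5.37-fold, limma adjusted p = 0.0161), the largest of any SLC gene called higher against uninjured skin, and was lost without 21 dpi replicate 2 or 3 (values 2.00 to 2.79). At 2 and 14 dpi it was 1.51 ± 0.54 and 1.31 ± 0.54 and not called. Of 10 nerve and Schwann cell markers, 0 were called at 21 dpi, where 14.9% of all named genes were.

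SLC29A1, the equilibrative nucleoside carrier ENT1, had 7.09, 6.78 and 5.89 in uninjured skin, 6.12, 6.19 and 5.63 at 2 dpi, 6.91, 7.82 and 7.34 at 14 dpi and 7.66, 7.76 and 7.64 at 21 dpi. The 21 dpi arrays were the tightest and above all uninjured and 2 dpi arrays. The log2 change was 1.10 ± 0.30 at 21 dpi against uninjured skin (limma adjusted p = 0.0396, lost in 8 of 12 omissions and kept only without uninjured replicate 1, 2 dpi replicate 3 or 14 dpi replicates 1 or 2), and 1.38 ± 0.30 and 1.71 ± 0.30 at 14 and 21 dpi against 2 dpi (adjusted p = 0.0222 and 0.00329), the first lost without 2 dpi replicate 3 or 14 dpi replicates 2 or 3. SLC35A2, which moves UDP-galactose into the Golgi, had 4.19, 4.47 and 4.40 at 21 dpi, against 5.05, 5.05 and 5.10 in uninjured skin and 5.73, 5.31 and 5.51 at 2 dpi (-0.71 and -1.16, adjusted p = 0.0191 and 0.00102), the first lost without uninjured replicates 1 or 2 or 21 dpi replicates 1 or 3. SLC15A3, a lysosomal peptide and histidine carrier of immune cells, was higher at 2 dpi by 0.76 (adjusted p = 0.00980). SLC33A1, which moves acetyl-CoA into the endoplasmic reticulum, was lower at 21 than at 2 dpi, with a log2 change of -1.001 (adjusted p = 0.00364).

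**Figure D4:**
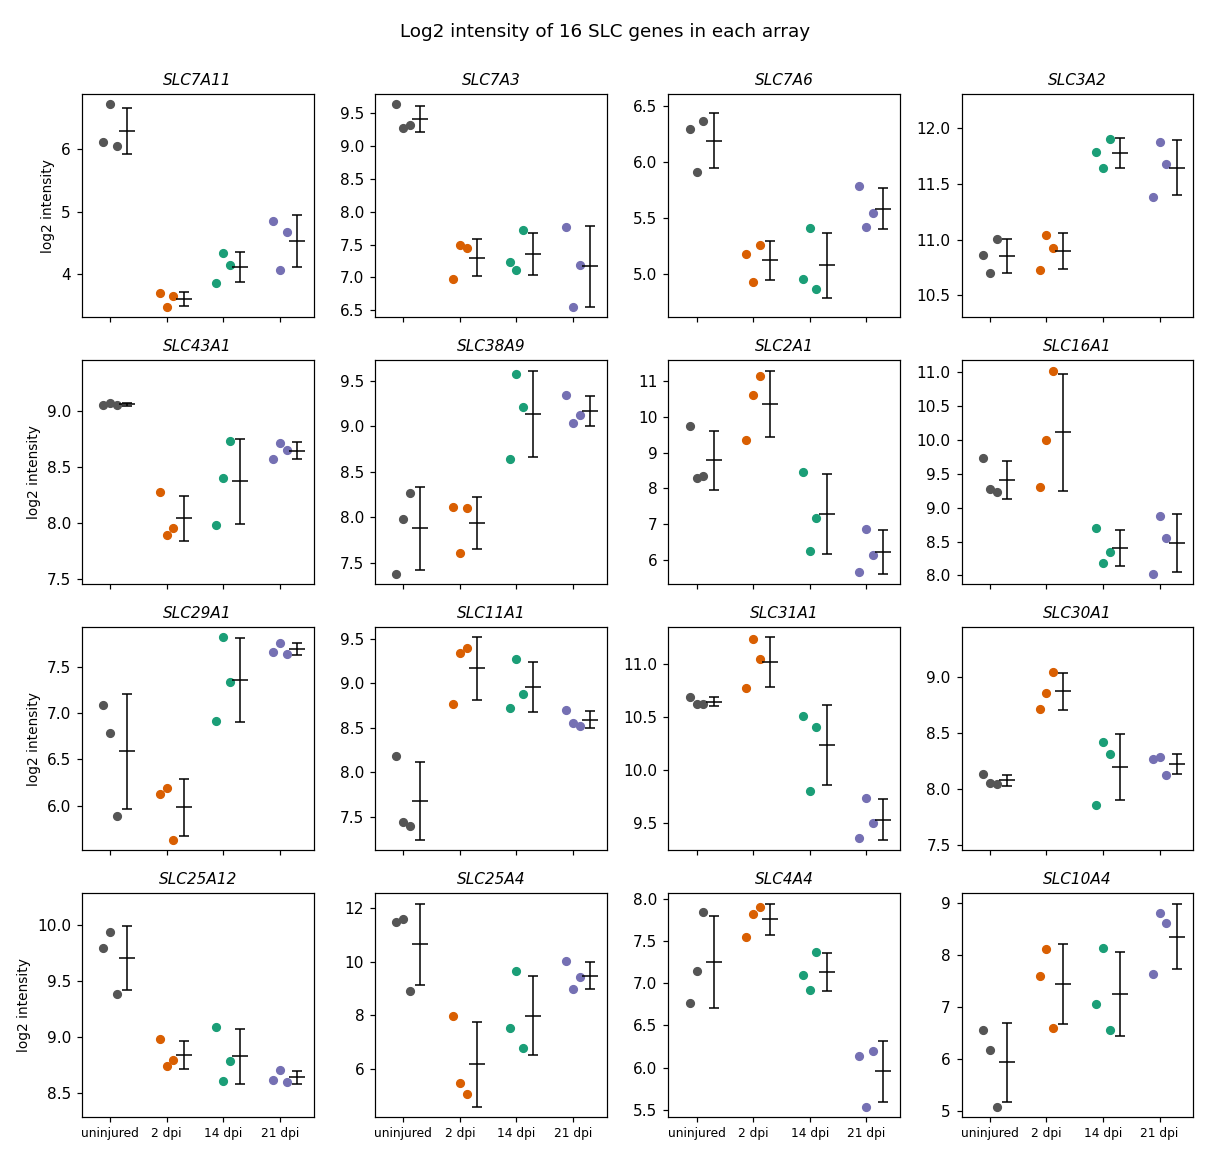
Log2 intensity (vertical axis, scale differs between panels) of 16 SLC genes in each of the 12 arrays. Points are arrays, and the horizontal mark and bars beside them are the group mean ± SD (n = 3). Wounds are low throughout for SLC7A11, SLC7A3 and SLC25A12 and high throughout for SLC11A1, while SLC3A2 and SLC38A9 are high at 14 and 21 dpi, and SLC2A1, SLC31A1 and SLC4A4 are lowest at 21 dpi.

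Between wound times, 13 SLC genes (7.47%) were called at 14 against 2 dpi, 6 higher and 7 lower, where 8.67% of all named genes were (4.58% higher, 4.09% lower). Of these, 2 were higher and 2 lower by at least 2-fold, beside 3.69% of all named genes, and 36 SLC genes (20.7%) had no overlap between the groups, beside 27.8%. At 21 against 2 dpi there were 30 (17.2%), 12 higher and 18 lower, against 25.3% (10.9% higher, 14.4% lower). At least 2-fold were 5 of those higher and 6 of those lower, beside 8.94%, and 65 SLC genes (37.4%) had no overlap, beside 44.9%. At 21 against 14 dpi limma called 0 SLC genes, against 0.162% of all named genes (0.104% higher, 0.0579% lower, and 0.104% at least 2-fold), although 12 had an unadjusted p under 0.05, 9 of them lower and 3 higher. The 13 calls became 3 and 2 without 2 dpi replicates 2 and 3, and 3 and 5 without 14 dpi replicates 2 and 3. The 30 became 18 and 19 without 2 dpi replicates 2 and 3, and 16 and 17 without 21 dpi replicates 1 and 3, and the 0 became 2 without 14 dpi replicate 2. At 21 against 2 dpi the calls kept with the muscle mean as a covariate were SLC3A2, SLC31A1, SLC35A2 and SLC4A4, and with the epidermal mean SLC3A2 and SLC31A1. At 14 against 2 dpi they were SLC3A2, SLC30A1 and SLC29A1 with the muscle mean and SLC3A2 and SLC30A1 with the epidermal mean. The epidermal means did not overlap in either comparison, nor did the muscle means of 2 and 21 dpi. Such fits cannot tell the marker mean from the time. By the brightest probe of each gene, 11 of the 43 genes called in any of the 6 comparisons were called only between wound times. Among them were SLC16A1, SLC33A1, SLC37A3, SLC43A2, SLC43A3 and the peroxisomal carrier SLC25A17. Another probe of SLC16A1 and another of SLC43A2 were called against uninjured skin. The split by brightest probe was not counted over all named genes. At 21 against 2 dpi the SLC25 family had 3 calls higher (SLC25A4, SLC25A17 and SLC25A45) and 5 lower, the largest fall being -0.90 for the oxodicarboxylate carrier SLC25A21 (limma adjusted p = 0.0225, lost without 2 dpi replicates 2 or 3 or 21 dpi replicates 1 or 3). The non-carrier SLC7A6OS was lower, with a log2 change of -0.45 (adjusted p = 0.0389, lost in 7 of 12 omissions and kept only without uninjured replicates 1 or 3, 14 dpi replicates 1 or 2 or 21 dpi replicate 2), and SLC2A4RG and SLC4A1AP were not called anywhere.

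Most SLC genes had no call. In 131 of 174 no comparison was called, and 40 were below the lower quartile of all values, 4.08, in every group, none of which was called. Of the other 134 genes, 43 (32.1%) were called somewhere. By definition 25% of all probe values lie below the lower quartile. These counts were not made over all named genes, so they do not set SLC genes apart. The median range over the 12 arrays was 0.59 for all 174 genes, 1.28 for those called and 0.51 for those not. Among the genes with the smallest ranges, SLC6A5, SLC13A3, SLC6A3 and SLC25A18 lay at means between 2.95 and 3.39, below the lower quartile. SLC4A1 and SLC25A37, a bicarbonate exchanger and an iron carrier of red cells, had log2 changes at 21 dpi of 0.06 and 0.02 and were not called, although 6 of 9 red cell markers were higher then. SLC45A2, a melanosome carrier, was not called either (-0.25 at 21 dpi), with 1 of 6 pigment cell markers lower at that time. At 21 dpi 7.67% of all named genes were higher and 7.26% lower.

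For 22 SLC genes the array held 2 to 4 probes. The representative probe was called in some comparison for 11 of them, and for 6 another probe carried the same call in the same comparison, namely SLC16A1, SLC25A33, SLC2A1, SLC38A9, SLC43A1 and SLC43A2. In 2 genes, SLC16A6 and SLC38A3, only another probe was called, and 0 genes had probes called in opposite directions in the same comparison. For the calls of SLC12A4, SLC4A4, SLC25A39, SLC39A7 and SLC43A3, no other probe of the gene was called in the same comparison and direction.

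**Figure D5:**
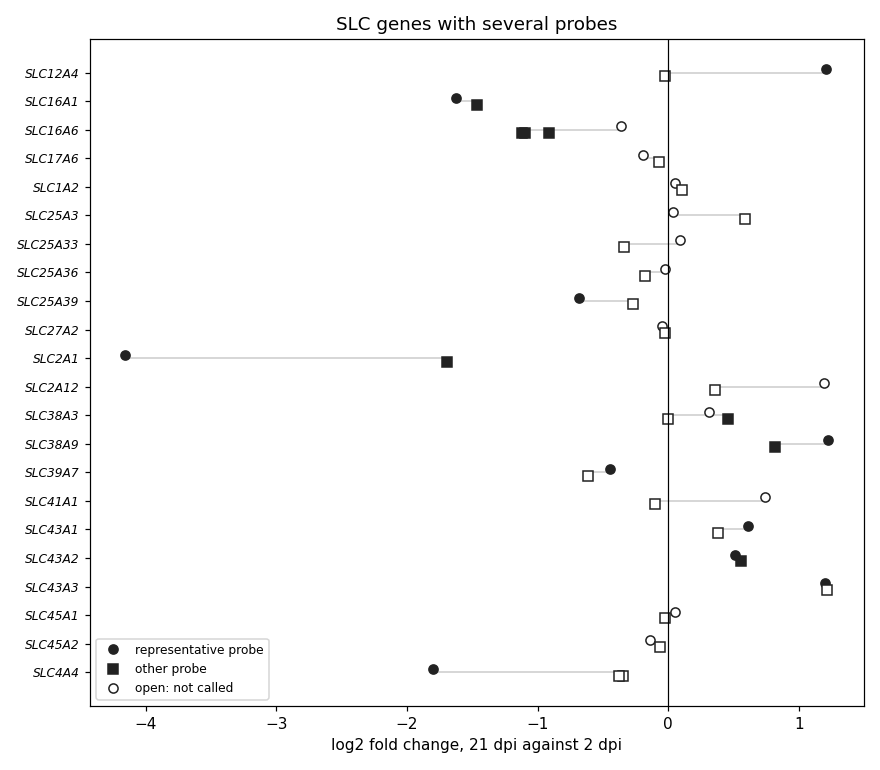
Log2 fold change at 21 against 2 dpi (horizontal axis) of every probe of the 22 SLC genes with several probes. Circles are the representative probes, squares the others, filled where called; no gene has filled symbols on both sides of 0, and the probes of SLC2A1, SLC12A4 and SLC4A4 lie farthest apart.

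Transport genes outside the rule were counted for comparison. Of 43 measured pumps, water channels, SLCO carriers and carrier partners, 4 were higher and 3 lower at 2 dpi, 3 higher and 0 lower at 14 dpi, and 5 higher and 3 lower at 21 dpi. These were 16.3%, 6.98% and 18.6% of the list, beside 10.8%, 8.04% and 14.9% of all named genes. The export pump ABCC2 was higher at all times, by 1.68, 1.10 and 0.63 (limma adjusted p = 0.000199, 0.00261 and 0.0215), as was the cholesterol exporter ABCA1, by 0.85, 1.96 and 1.58 (adjusted p = 0.0356, 0.000837 and 0.00219). The water channel AQP1, found on endothelium and red cells, was lower at 2 dpi, with a log2 change of -2.74 (adjusted p = 0.00252). Among the 17 SLC35 B to F and SLCO genes, 0 were called at 2 and 14 dpi. At 21 dpi 3 (17.6%) were called, all lower, namely SLC35B1, SLC35C1 and SLC35B4, beside 14.9% of all named genes. Of these, SLC35C1 and SLC35B4 carry nucleotide sugars into the Golgi or endoplasmic reticulum, as SLC35A2 does. At 21 against 2 dpi 1 of the 17 was higher and 6 were lower (41.2% called), beside 25.3% of all named genes. The difference was not tested.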

How the data were processed

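The deposited values are log2 intensities that the authors made from a custom 1-colour Affymetrix axolotl array by RMA, which corrects background, normalises between arrays and summarises to 1 value per probe set. The labels name Affymetrix Expression Console and the methods the affy package, with versions not given in the sources used here. Depth does not apply to arrays, and the 3 arrays per group limit the precision.

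Of 20080 probe sets, 45 controls were left out, 10951 of the others had a gene symbol and 9084 had none. All 20035 were fitted with limma 3.58.1 (R 4.3.3) as 4 group means, arrays taken as independent (8 residual degrees of freedom), with no filter. The script was tested on simulated data. Figures were drawn with matplotlib 3.10.9 (Python 3.11.15). Symbols come from the platform annotation.

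The members, groups and lists were chosen with earlier results of these data known. Genes named were the 8 largest called rises and falls without overlap in each comparison, the 3 smallest F-test p of each family with 6 or more members, SLC3A2, the SLC7 and SLC16 genes with BSG and EMB, the 5 brightest and 5 least variable, carriers of restricted cell types, and the 4 smallest F-test p of each pathway list. From the iron, copper and zinc list only HMOX1 and HMOX2 are named. Others were added after their values were seen: SLC11A2, SLC25A1, SLC25A11, SLC25A17, SLC25A24, SLC25A33, SLC25A39, SLC37A3, SLC38A2, SLC35B1, SLC35C1, SLC35B4, the 3 genes that are not carriers, ATF4 and ASNS. No tested probe bore the symbol SLC2A4, SLC8A1, SLC14A2, SLC24A5 or SLC25A38 in the annotation used, so these genes could not be analysed. The remaining marker lists were called against uninjured skin as follows. At 2, 14 and 21 dpi, 3, 2 and 1 of 5 neutrophil markers were higher and 3, 0 and 0 of 14 endothelial markers lower. Over all named genes 6.22%, 5.29% and 7.67% were higher and 4.54%, 2.75% and 7.26% lower.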

Additional observations from a re-analysis of the deposited data

Results flagged for a closer look

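Of the SLC genes, 11 differed by at least 2-fold between wound times with an adjusted p under 0.05 in limma, which tests the difference between the responses at the 2 times since both are set against the same uninjured arrays. At 14 against 2 dpi the log2 difference was -3.09 for SLC2A1, -1.70 for SLC16A1, 1.38 for SLC29A1 and 1.20 for SLC38A9. At 21 against 2 dpi it was -4.16 for SLC2A1, -1.80 for SLC4A4, -1.63 for SLC16A1, -1.49 for SLC31A1, -1.16 for SLC35A2 and -1.001 for SLC33A1 among those lower at 21 dpi. It was 3.32 for SLC25A4, 1.71 for SLC29A1, 1.23 for SLC38A9, 1.21 for SLC12A4 and 1.20 for SLC43A3 among those higher. The muscle mean was higher and the epidermal mean lower at 21 than at 2 dpi, without overlap between the arrays. In place of 30 SLC genes, 4 were called between these times with the muscle mean as a covariate and 3 with the epidermal mean. SLC31A1 and SLC3A2 were called with both. As each mean separates the 2 groups, such a fit cannot tell the marker mean from the time. What the lost calls reflect was not tested.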

How the results depend on the processing

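Over 23 alternative settings, the 93 pairs of gene and comparison that were called gave 2137 values, of which 1613 kept the call, 524 lost it with the same direction and 0 reversed. The alternatives left out probes below the 25th percentile, changed the normalisation, the eBayes prior, the array weights or the probe of a gene, fitted only the groups compared, added the replicate block or a marker mean, or left out arrays. The cause of each change was not tested. With array weights, calls numbered 24 at 2 dpi, 21 at 14 dpi and 55 at 21 dpi against uninjured skin, 54 at 21 against 2 dpi, 15 at 21 against 14 dpi and 70 in the F-test. With only the groups compared they numbered 7, 3 and 14 against uninjured skin and 2 at 14 against 2 dpi. With the muscle mean as a covariate there were 5 at 2 dpi, 13 at 14 dpi and 31 at 21 dpi. Between wound times that fit gave 4 at 14 against 2 dpi and 4 at 21 against 2 dpi. With the epidermal mean there were 14 at 14 dpi and 8 at 21 dpi. That fit also gave 3 at 14 against 2 dpi, 3 at 21 against 2 dpi and 13 in the F-test. Leaving out both uninjured replicate 3 and 14 dpi replicate 2, chosen after seeing the data, gave 28 at 2 dpi, 18 at 14 dpi, 4 at 14 against 2 dpi, 6 at 21 against 14 dpi and 49 in the F-test. Leaving out 1 array gave 9 to 25 calls at 2 dpi, 7 to 19 at 14 dpi, 9 to 26 at 21 dpi, 2 to 15 at 14 against 2 dpi, 16 to 35 at 21 against 2 dpi, 0 to 2 at 21 against 14 dpi and 23 to 41 in the F-test. It is not settled if same-numbered arrays share an animal. The paper names 3 separate adult males and does not say if each was sampled at every time. With group means removed, 18 same-numbered pairs correlated between -0.65 and 0.48, 5 of them over 0.1. The 36 other pairs ran from -0.47 to 0.65, 12 of them over 0.1. Of 12 arrays, 4 correlated best with their own number. Such residuals of 3 arrays a group, with muscle uneven among them, cannot decide the pairing. With the replicate block there were 14, 11 and 17 calls at 2, 14 and 21 dpi, 9 at 14 against 2 dpi, 22 at 21 against 2 dpi, 0 at 21 against 14 dpi and 29 in the F-test. At 21 dpi the block kept 16 of the 25 calls of the main fit. The 40 SLC genes below the lower quartile in every group leave less room for a measured fall than brighter ones.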
